A study of Mus musculus with 11 samples.

Results

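The 6 HFD arrays of the series, out of 11 arrays in all, were described on their own, to see which hypothalamic genes differed most from one HFD offspring sample to the next and which genes did so together. They were taken by their labels. HFD offspring were male C57BL/6N mice at postnatal day (P) 21, born to and nursed by dams on a high-fat diet that had begun at weaning and continued through mating, gestation and lactation. The other 5 arrays were from male C57BL/6N offspring of the same age whose dams were on standard chow (CO, labelled SD), and here only the spread within that group was used. All offspring were killed unfasted in the morning, and the hypothalamus was cut out behind the optic chiasm between the hypothalamic sulci and below the mammillothalamic tract. By the methods at most 2 offspring of a dam were analysed. The labels do not say whether a sample was 1 animal or which dam it came from, so all values of spread cover these samples only, and litter and technical variation are both in them.

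The hypothalamus is a set of small nuclei at the base of the forebrain that control feeding, water balance, reproduction, temperature and the pituitary. Its neurons are told apart by their peptides, such as Avp and Oxt in magnocellular neurons or Agrp and Pomc in the arcuate nucleus. It borders on striatal and septal tissue in front, thalamus above, midbrain behind, and the ventricle with its choroid plexus and ependyma. Block dissection of such a tissue gives RNA of many cell types, and in RNA of whole tissue fewer cells of a type and less RNA per cell cannot be told apart.

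Levels are log2 of the processed signal minus the 75th percentile of the array, so that 0 is the level of a probe at that percentile and a difference of 1 is a factor of 2. Of 39429 mouse probes, 27424 were well above background on all 6 HFD arrays, and the 20367 of these that carried a gene name covered 15456 genes, each taken by its brightest probe. The spread of a gene is the standard deviation (SD) of its level over the 6 arrays. The defining peptides of the hypothalamus were present on every array, with Avp at 1.32 to 3.33, Hcrt, the orexin precursor, at 3.46 to 3.97 and Pomc at 0.00 to 1.29. Of 15 pituitary genes, 8 were measured on all 6 arrays, and the growth hormone and prolactin genes were not among them.

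The leading plasma protein genes of hepatocytes shared a peak on 1 array and the Xlr genes an order over all 6 (values below). Promoter sequences of both groups are therefore shown first, and their part in these patterns was not tested. They are the 250 bases before the transcription start in RefSeq, build GRCm38.p6, read 5′ to 3′ on the strand of the gene. Capitals mark GTTAAT or its reverse complement, a half-site of HNF1, a factor of hepatocytes. Alb (chr5:90460620-90460869, plus strand), Serpina1a (chr12:103863620-103863869, minus strand) and Serpina1e (chr12:103956898-103957147, minus strand) each held it once, from base -32, -21 and -78 respectively, counted back from the start.
Alb: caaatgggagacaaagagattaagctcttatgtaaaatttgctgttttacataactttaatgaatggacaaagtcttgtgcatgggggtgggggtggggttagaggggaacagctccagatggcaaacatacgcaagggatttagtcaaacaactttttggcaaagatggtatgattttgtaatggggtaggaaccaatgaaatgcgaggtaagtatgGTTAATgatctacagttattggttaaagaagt
Serpina1a: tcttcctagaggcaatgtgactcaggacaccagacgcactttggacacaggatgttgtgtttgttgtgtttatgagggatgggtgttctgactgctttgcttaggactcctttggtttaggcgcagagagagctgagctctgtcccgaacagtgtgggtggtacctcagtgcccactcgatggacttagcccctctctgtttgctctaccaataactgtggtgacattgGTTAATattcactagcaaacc
Serpina1e: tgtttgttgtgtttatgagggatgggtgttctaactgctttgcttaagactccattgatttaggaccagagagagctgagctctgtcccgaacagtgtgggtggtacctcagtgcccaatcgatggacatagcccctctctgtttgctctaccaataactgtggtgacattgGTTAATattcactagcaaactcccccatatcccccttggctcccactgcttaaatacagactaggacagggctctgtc

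The half-site lay within 250 bases of the start in 7 of the 13 measured plasma protein genes that have a promoter in the table, or 53.8%, and in 6.52% of all 27025 promoters, both strands searched. These genes were chosen after their values had been seen. Laid side by side with a shift of 57 bases, Serpina1a and Serpina1e were identical at 184 of 193 bases. Whether the probes of these relatives bind each other's transcripts was not tested. Xlr4a (chrX:73082508-73082757, minus strand) and Xlr4b (chrX:73214083-73214332, plus strand) lie on opposite strands of the X chromosome, and with a shift of 7 bases they were identical at 239 of 243 bases (98.4%).
Xlr4a: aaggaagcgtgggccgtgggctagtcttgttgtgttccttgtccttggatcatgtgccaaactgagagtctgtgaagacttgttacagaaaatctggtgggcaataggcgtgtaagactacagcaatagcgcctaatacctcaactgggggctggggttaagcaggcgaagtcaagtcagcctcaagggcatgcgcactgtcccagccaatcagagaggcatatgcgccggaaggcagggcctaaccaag
Xlr4b: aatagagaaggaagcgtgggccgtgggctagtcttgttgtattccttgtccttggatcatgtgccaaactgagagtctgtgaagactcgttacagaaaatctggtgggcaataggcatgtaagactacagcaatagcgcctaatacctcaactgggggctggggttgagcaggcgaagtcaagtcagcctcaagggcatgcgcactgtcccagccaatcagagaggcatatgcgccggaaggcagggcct

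Further motifs were searched in the same window, on both strands. The palindromic glucocorticoid response element was found in 2 of 15 promoters of glucocorticoid-responsive genes (13.3%) and in 0.381% of all promoters. Its half-site AGAACA, which can overlap it, was found in 2 of the 15 and in 16.2% of all promoters. The E-box CAGATG was found in 4 of 14 promoters of cortical and hippocampal genes (28.6%) and in 14.5% of all promoters. A match is a description of letters and not of a bound site.

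Most genes differed little between HFD offspring. The median SD over 15456 genes was 0.126, and from the 5th to the 95th percentile it ran from 0.0547 to 0.359. An SD of at least 0.5 was seen in 309 genes (2.00%) and of at least 1 in 27 genes. The SD fell with the level, from a median of 0.205 in the dimmest of 5 equal classes of genes to 0.100 in the brightest. For 313 probes printed on 10 spots each, the median SD between spots of the same array was 0.0715 and the median SD between arrays was 0.110, and 75.1% of these probes varied more between arrays than between spots. Appl1, an adaptor of insulin and adiponectin signaling, had the smallest SD among genes above the 75th percentile, 0.0135, with levels of 0.93 to 0.97. Tfcp2, a transcription factor, and Ing1, a chromatin reader, spanned 0.03 and 0.05 log2 units over the 6 arrays. A second probe of Ing1 had an SD of 0.11 and followed the first at r = 0.16.

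**Figure D1:**
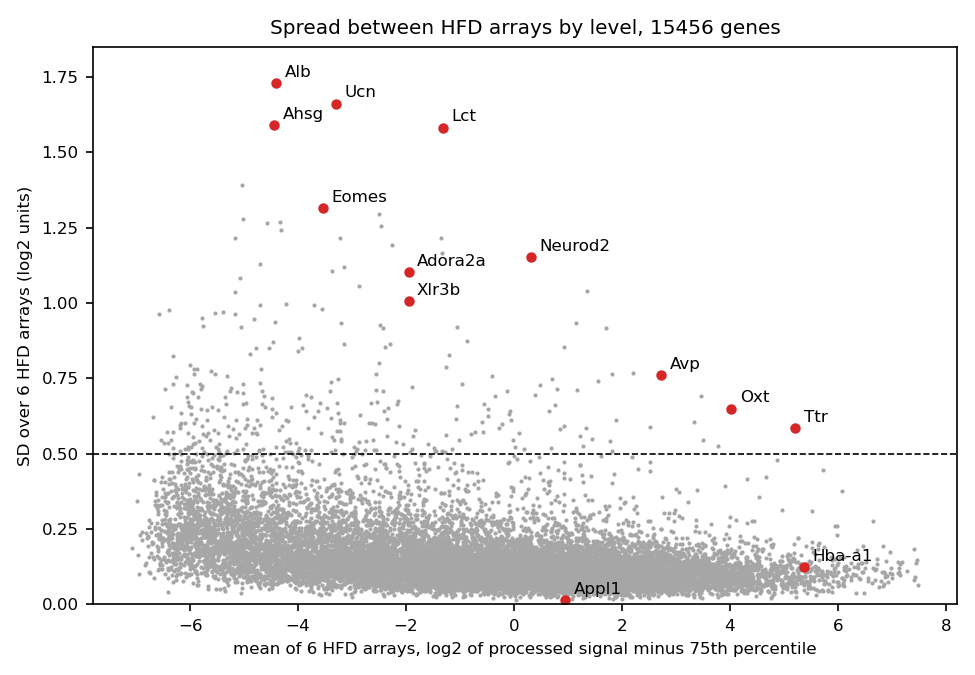
Each point is 1 of 15456 genes, with its mean level over the 6 HFD arrays on the x axis and its SD over these arrays on the y axis, both in log2 units. The dashed line marks an SD of 0.5, above which 309 genes lie; named genes are in red, and bright genes such as Oxt and Ttr lie far above the other genes of their level.

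The 30 genes with the largest SD were led by Alb, which codes for serum albumin, at an SD of 1.73. Ucn, the CRH family peptide urocortin, followed at 1.66, Ahsg, the plasma protein fetuin-A, at 1.59 and Lct, the enzyme lactase, at 1.58. The last of the 30, Cldn22, a claudin, had 0.99 and the gene after it, Bhmt, a methyltransferase of homocysteine, 0.98. Alb was at -5.48, -4.73, -4.26, -5.18 and -5.71 on arrays HFD1 to HFD5 and at -1.03 on HFD6. Ucn was at -2.39, -5.96, -1.45, -3.43, -2.18 and -4.39 on HFD1 to HFD6. Lct was at -4.43 on HFD1 and between -1.33 and -0.34 on the other 5 arrays. The order rests on single arrays: the SD was 0.58 for Alb and 0.46 for Ahsg without HFD6, and 0.44 for Lct without HFD1. Of the 30 SDs, 16 moved by more than their jackknife error without HFD1 and 5 without HFD6. HFD1 was the lowest array in 21 of the 30 genes, by at least 1 log2 unit in 16 of them.

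**Figure D2:**
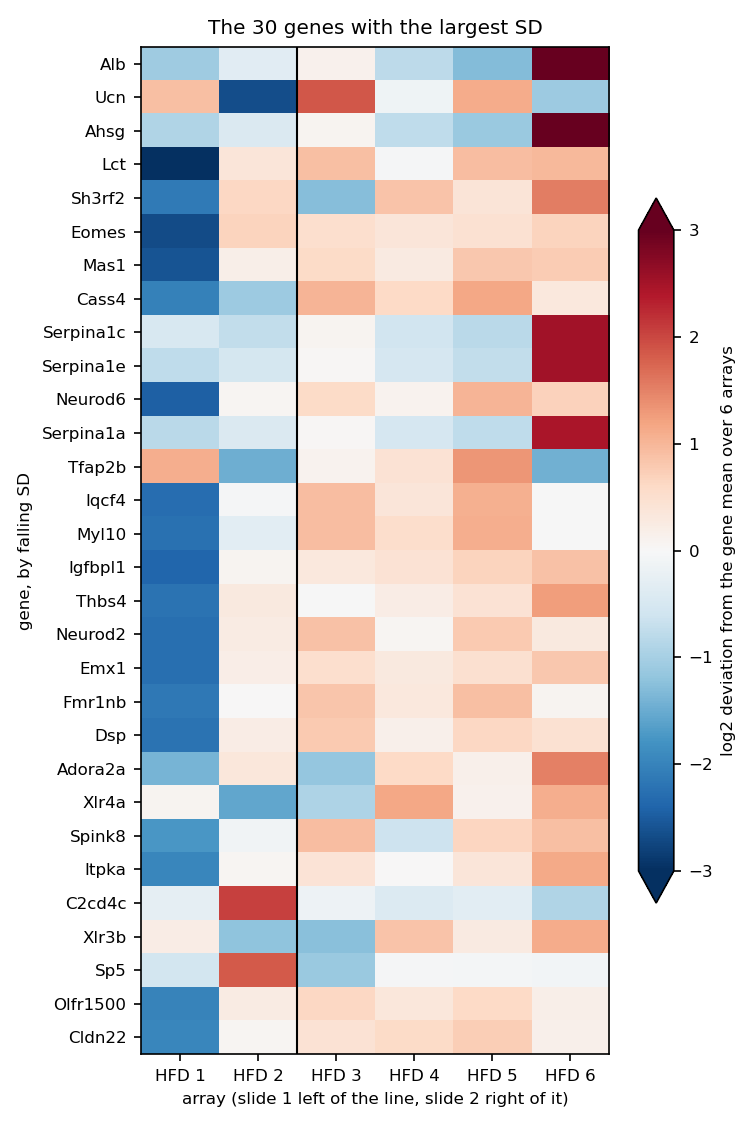
Rows are the 30 genes with the largest SD, columns the 6 HFD arrays, and colour the log2 deviation from the mean of the gene over the 6 arrays; colours are cut at 3 in either direction, which Alb and Ahsg on HFD6 and Lct on HFD1 pass. Blue cells gather in HFD1, and the plasma protein genes are red in HFD6.

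HFD1 stood apart from the other arrays. It carried 37.4% of the summed squared deviations of all genes, where 16.3% was the next highest share, in HFD3. The first principal component held 44.4% of the variance, with HFD1 at a score of 43.9 and the other 5 arrays between -12.7 and -3.0. HFD1 was the lowest array in 240 of the 309 genes with an SD of at least 0.5. The second component held 19.6% and set HFD3 (26.6) against HFD6 (-14.1). Without HFD1, 122 genes had an SD of at least 0.5 and the median SD of all genes was 0.109. By the gap of 1 array to its nearest neighbour over the whole range, 1 array stood far from the other 5 in 1428 genes (9.24%), and this array was HFD1, lowest in 585 and highest in 215 of them, more often than any other array. The share of spots well above background, the 75th percentile of the signal, the spike-in level and the scatter of replicate spots of HFD1 all lay between those of other HFD arrays. Its median processed signal was the lowest of the 6 (302 against 314 to 343), as was its share of outlier spots (0.216% against 0.323% to 0.446%), and their part in the result was not tested. HFD1 correlated with the other arrays over genes at r = 0.992 to 0.994, and the other arrays among themselves at up to 0.998.

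Genes of the cerebral cortex and hippocampus had the lowest mean deviation of the 35 lists on HFD1. Of 17 measured, 7 had an SD of at least 0.5, where 2.00% of all genes did, and the median SD of the 17 was 0.42. Neurod6, a bHLH factor of pyramidal neurons, was at -4.92 on HFD1 and at -2.42, -1.88, -2.37, -1.44 and -1.77 on HFD2 to HFD6. Neurod2, of the same family, was at -1.95 on HFD1 and between 0.36 and 1.20 on the others. Both were lowest on HFD1 with no other array near it. Emx1, a homeobox gene of the dorsal telencephalon, was at -6.96 on HFD1 and between -4.51 and -3.89 on the others. The mean deviation of the list was -0.92 on HFD1 and from 0.00 to 0.43 on the other 5. The mean level of the 17 genes ran from -2.97 to -1.62 over the 6 arrays. Without HFD1 the SD fell to 0.41 for Neurod6, 0.37 for Neurod2 and 0.24 for Emx1.

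Genes of newborn neurons and dividing cells followed the same array. Eomes, a T-box factor of intermediate progenitors, was at -6.22 on HFD1 and between -3.17 and -2.88 on the others, and its SD fell from 1.32 to 0.13 without HFD1. Igfbpl1, expressed in immature neurons, was at -4.62 on HFD1 and between -2.17 and -1.38 on the others. Top2a, the topoisomerase of dividing cells, was at -5.62 on HFD1 and between -4.96 and -4.25 on the others. Ccnd2, a cyclin, was at -0.58 on HFD1 and between 0.38 and 0.51 on the others. Of 15 measured members 3 had an SD of at least 0.5, and the mean deviation on HFD1 was -0.67.

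The choroid plexus, which secretes cerebrospinal fluid, gave a group that was low in HFD1 and high in HFD2. Ttr, the thyroid hormone carrier transthyretin, was at 4.06 on HFD1 and at 5.64, 5.60, 5.36, 5.31 and 5.30 on HFD2 to HFD6. Folr1, a folate receptor, was at -0.67 on HFD1 and between 0.48 and 1.40 on the others. Clic6, a chloride channel protein, was at -0.55 and between 0.83 and 1.34, Kl, the coreceptor klotho, at -2.28 and between -1.03 and -0.28, in the same order. All 4 were lowest on HFD1, Ttr, Clic6 and Kl were highest on HFD2, and Folr1 was highest on HFD3. Of 16 measured members 7 had an SD of at least 0.5, and the mean deviation was -0.82 on HFD1, 0.48 on HFD2 and between -0.01 and 0.19 on the rest. The median r over the 120 pairs of members was 0.89, 0.78 without HFD1 and 0.80 over the 5 CO arrays.

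Leptomeningeal and fibroblast genes were also low in HFD1, at a mean deviation of -0.69, with HFD2 to HFD6 at 0.02 to 0.27. Lum, the matrix proteoglycan lumican, was at -3.01 on HFD1 and between -1.77 and -1.57 on the others, and its SD fell from 0.56 to 0.08 without HFD1. Slc13a4, a sulfate transporter, was at 0.14 on HFD1 and between 1.15 and 1.63 on the others. Of 15 measured members 5 had an SD of at least 0.5. Ependymal and tanycyte genes had a mean deviation of -0.43 on HFD1. Rax, a homeobox gene of tanycytes, was at -5.29 on HFD1 and between -4.86 and -4.31 on the others.

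Several peptides of the hypothalamus itself were low in HFD1 as well. Avp, vasopressin, was at 1.32, 3.33, 3.25, 3.18, 2.80 and 2.47 on HFD1 to HFD6, and Oxt, oxytocin, at 2.72, 4.48, 4.29, 4.28, 4.13 and 4.26. Both were lowest on HFD1, and without it the SD fell from 0.76 to 0.36 for Avp and from 0.65 to 0.13 for Oxt. Agrp, the orexigenic peptide of the arcuate nucleus, was at -1.43 on HFD1 and between -0.38 and 0.47 on the others. Pomc, the precursor of the anorexigenic melanocortins, was at 0.00 on HFD1 and between 0.69 and 1.29 on the others. Vip, a peptide of the suprachiasmatic nucleus, was at -4.77 on HFD1 and between -3.49 and -2.79 on the others. Nr5a1, the marker of the ventromedial nucleus, was at -3.11 on HFD1 and between -2.09 and -1.86 on the others.

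Not all hypothalamic genes did so. In the arcuate list Th, which is also on the midbrain list, was highest on HFD1 at 2.16, and Cartpt, the precursor of the anorexigenic peptide CART, was at 2.56, 1.84, 2.93, 2.09, 2.57 and 1.83 on HFD1 to HFD6. Hcrt was at 3.90, 3.97, 3.56, 3.61, 3.46 and 3.79, with HFD1 among the higher arrays. Foxb1, a factor of the mammillary body, was highest on HFD1, at -0.53 against -1.42 to -0.91 on the others. Tcf7l2, a factor of thalamic neurons, was also highest on HFD1, at 0.82 against 0.06 to 0.69. Thalamic genes as a list had a mean deviation of 0.26 on HFD1, and lateral hypothalamic genes one of 0.06. Pairs of genes from the same hypothalamic list ran both ways. The median r was 0.09 in the arcuate list, -0.02 in the magnocellular and paraventricular list, -0.10 in the suprachiasmatic list and 0.23 in the preoptic list, the last 0.54 without HFD1. An r of at least 0.9 was seen in 1.90%, 6.41%, 9.09% and 6.06% of their pairs in this order, and in 1.35% of all pairs of genes.

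**Figure D3:**
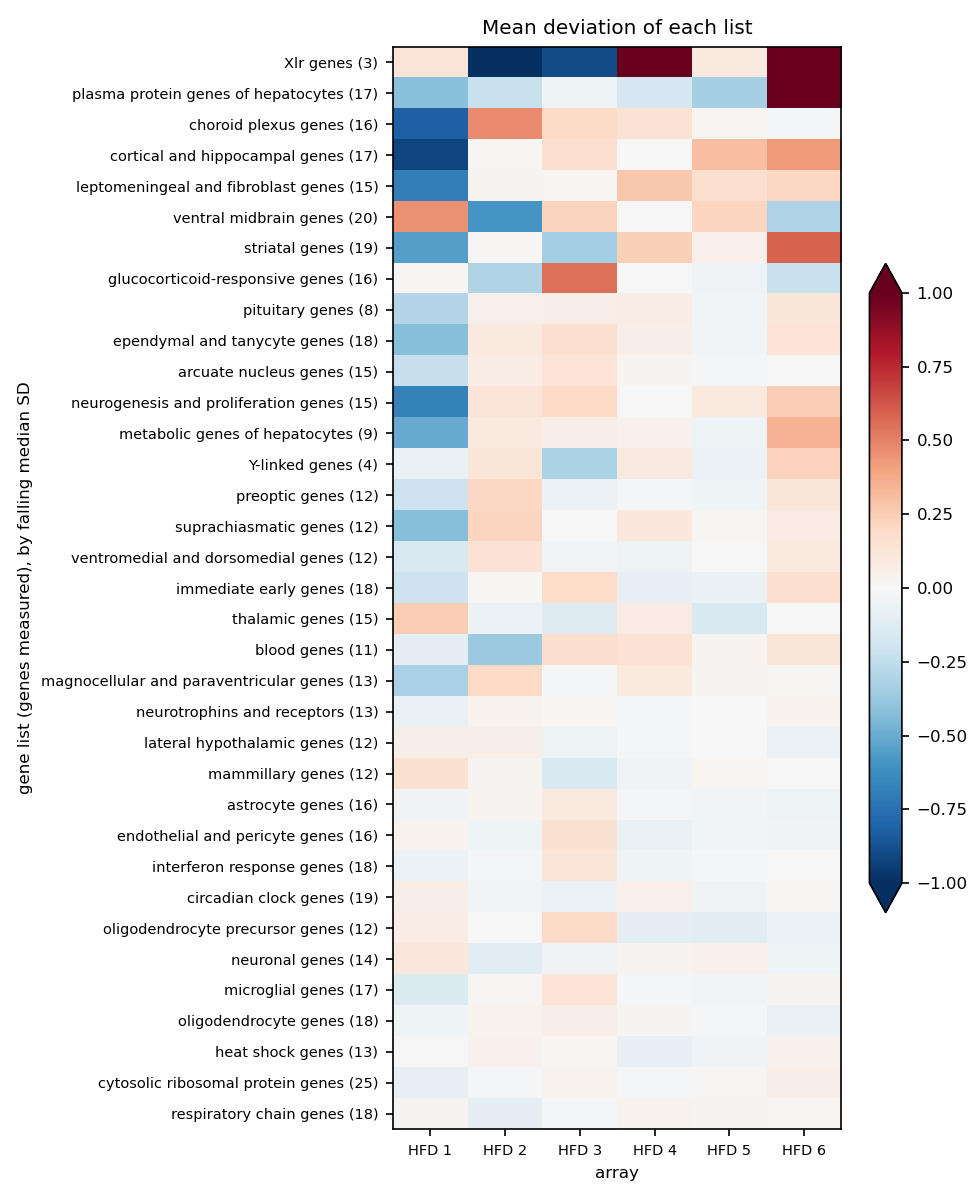
Rows are the 35 gene lists with the number of genes measured, in order of falling median SD, columns the 6 HFD arrays, and colour the mean log2 deviation of the members from their own means, cut at 1 in either direction. HFD1 is blue for cortical, choroid plexus, leptomeningeal, neurogenesis and striatal genes and red for ventral midbrain and thalamic genes.

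Striatal genes varied in an order of their own, which held with and without HFD1. Of 19 measured, 8 had an SD of at least 0.5, and the median SD was 0.37. Adora2a, the adenosine receptor of indirect pathway neurons, was at -3.36, -1.62, -3.11, -1.36, -1.81 and -0.45 on HFD1 to HFD6. Ppp1r1b, the dopamine-regulated phosphatase inhibitor DARPP-32, was at 0.58, 1.96, 1.479, 2.38, 1.67 and 2.78. Both were lowest in HFD1, next lowest in HFD3 and highest in HFD6. The mean deviation of the list was -0.55 on HFD1, -0.34 on HFD3 and 0.59 on HFD6. The median r over 171 pairs was 0.79, 0.85 without HFD1 and 0.77 with the mean of each slide removed, while over all 119436240 pairs of genes it was 0.00 and over pairs of the 309 genes with an SD of at least 0.5 it was 0.54. The mean level of the list ran from 0.08 to 1.22 over the HFD arrays, and the part of the edge of the dissection in this was not tested. On the 5 CO arrays the median r of the same 19 genes was 0.98 and their median SD 0.71.

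**Figure D4:**
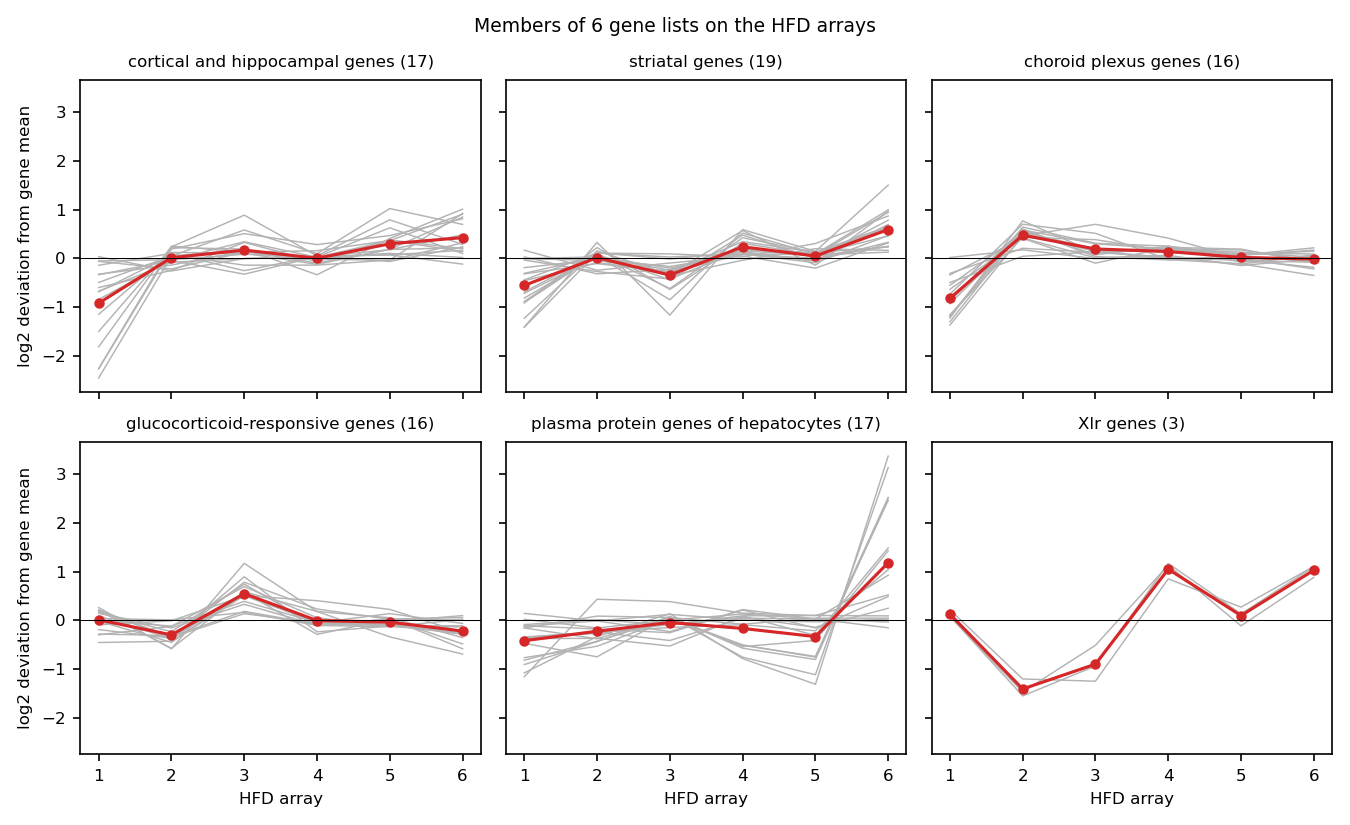
Each panel is 1 gene list with the number of measured members; grey lines are genes, the red line is their mean, the x axis is the HFD array and the y axis the log2 deviation from the mean of the gene. Cortical and choroid plexus genes dip in HFD1, striatal genes in HFD1 and HFD3, glucocorticoid-responsive genes peak in HFD3 and plasma protein genes in HFD6.

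Genes that glucocorticoids raise were highest in HFD3. Fkbp5, a cochaperone of the glucocorticoid receptor, was at 1.40, 1.37, 2.25, 1.63, 1.82 and 1.62 on HFD1 to HFD6. Sgk1, a kinase named for its induction by serum and glucocorticoids, was at 2.67, 2.28, 3.26, 2.40, 2.55 and 1.93. Cdkn1a, the cell cycle inhibitor p21, was at -1.51 on HFD3 and between -2.78 and -2.32 on the others. Arrdc2, an arrestin family member, was at 2.00 on HFD3 and between 0.74 and 1.45 on the others, and Lcn2, a lipocalin, at -2.69 on HFD3 and between -4.55 and -3.59. In each of these 5 genes HFD3 was highest. Of 16 measured members 1 had an SD of at least 0.5, and the mean deviation was 0.55 on HFD3, -0.30 on HFD2 and -0.22 on HFD6. The median r over 120 pairs was 0.76, 0.85 without HFD1 and 0.33 without HFD3, and 0.20 over the CO arrays.

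Plasma protein genes of hepatocytes were raised on 1 array, HFD6. Ahsg was at -5.35, -4.88, -4.37, -5.20 and -5.56 on HFD1 to HFD5 and at -1.31 on HFD6. Serpina1c, an alpha-1-antitrypsin, was at -1.83 on HFD6 and between -5.14 and -4.26 on the others. Serpina1e and Serpina1a, its relatives, were at -2.06 and -1.87 on HFD6 and at or below -4.55 and -4.28 elsewhere. Ambp, the precursor of alpha-1-microglobulin, was at -3.84 on HFD6 and between -5.85 and -5.24 on the others. Of 24 genes of this list on the array, 17 were measured. An SD of at least 0.5 was seen in 9 of them, and in 2.00% of all genes. The list was chosen after the values had been seen, so this count follows in part from that choice. The median r of the 17 genes was 0.66, but 0.24 without HFD6. Metabolic enzymes of hepatocytes, a list chosen in the same way, had a median SD of 0.24. Their mean deviation was -0.50 on HFD1 and 0.35 on HFD6. Ahsg was at -1.24 on CO array 2 as well and between -6.55 and -4.73 on the other 4 CO arrays, and Alb could not be set beside it, since it was not well above background on all CO arrays. The mean level of the 17 genes ran from -2.92 to -1.32, and whether RNA of another tissue was on HFD6 was not tested.

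Ventral midbrain genes, a list also chosen after the values had been seen, were low in HFD2 and HFD6. Tfap2b, an AP-2 factor, was at -2.13, -4.70, -3.12, -2.80, -1.90 and -4.67 on HFD1 to HFD6. Dmbx1, a homeobox gene of the midbrain, was at -3.90, -5.64, -4.74, -4.25, -3.99 and -5.61. Foxa2, a factor of midbrain dopamine neurons, was at -1.477, -3.41, -1.92, -2.46, -2.19 and -2.52, and Th, the rate-limiting enzyme of dopamine synthesis, at 2.16, 0.81, 2.03, 1.56, 1.72 and 1.33. In each of the 4, HFD2 was lowest and HFD6 next to lowest. Of 20 measured 6 had an SD of at least 0.5, where 2.00% of all genes did. This count too follows in part from the choice of the list. The mean deviation of the list was 0.45 on HFD1, -0.59 on HFD2 and -0.31 on HFD6. The median r was 0.62, 0.60 without HFD1 and 0.34 over the CO arrays.

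The Xlr genes are a family of the X chromosome expressed in lymphocytes and in brain, and 3 of 8 on the array were measured. This list too was chosen after the values had been seen, so its median SD of 1.01 follows in part from that choice. Xlr3b was at -1.73, -3.16, -3.20, -1.10, -1.68 and -0.85 on HFD1 to HFD6. Xlr4a was at -5.0, -6.63, -6.02, -3.92, -4.95 and -3.99, and Xlr4b at -4.73, -6.28, -5.32, -3.68, -4.92 and -3.93. All 3 were low in HFD2 and HFD3 and high in HFD4 and HFD6, spanning 2.35 to 2.72 log2 units, and HFD1 lay in the middle. Their median r was 0.97 over the HFD arrays and 0.98 over the CO arrays, where Xlr3b ran from -3.23 to -1.09. A second probe of Xlr3b followed the first at r = 0.98. Whether their probes bind each other's transcripts was not tested.

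Among the other lists, pituitary genes had a median SD of 0.32 and a mean deviation of -0.29 on HFD1. Among the immediate early genes, which are induced by activity, members ran both ways on HFD1. Egr2 was at -5.56 on HFD1 and between -4.53 and -3.53 on the others, and Egr4 at -1.37 and between -0.15 and 0.40. Fos, of the same list, was highest on HFD1, at -1.29 against -2.07 to -1.42 on the others. The list had a mean deviation of -0.21 on HFD1 and a median r of 0.26. Lists with small SDs included those of common cell types and of housekeeping genes. Heat shock (median SD 0.11), circadian clock (0.15) and interferon response genes (0.15) were also among them. Cytosolic ribosomal protein genes had a median SD of 0.08, respiratory chain genes 0.08, oligodendrocyte genes 0.13, microglial genes 0.14, neuronal genes 0.14 and astrocyte genes 0.17. Mbp, the myelin basic protein, was at 3.09 to 3.47 and Cx3cr1, the fractalkine receptor of microglia, at 1.93 to 2.28. Hba-a1, an alpha globin of red cells, was at 5.24 to 5.60. The neutrophil genes on the blood list varied more: S100a9 was at -4.03 on HFD2 and between -2.59 and -1.99 on the others, and S100a8 at -7.05 on HFD2 and between -5.78 and -5.04. Ermn, a myelin protein gene, had an SD of 0.53 by its brightest probe, but its second probe ran the other way (r = -0.81), so its value rests on which probe is read.

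The 200 genes with the largest SD were grouped by average linkage on 1 minus r, and 173 of them fell into 7 clusters of at least 5 genes. A high r within a cluster over the HFD arrays follows from this grouping, and only r over the CO arrays is separate from it. The largest cluster held 109 genes, all of them lowest on HFD1, among them Lct, Mas1, an angiotensin peptide receptor, and Cass4, a scaffold protein. Its median r was 0.87, but 0.12 without HFD1 and 0.02 over the CO arrays. The next held 26 genes, among them Adora2a, Sh3rf2, which codes for a ubiquitin ligase, and Six6, a homeobox gene, with 24 highest on HFD6. Its median r was 0.92, 0.88 without HFD1 and 0.67 over the CO arrays. A cluster of 13 held Alb, Ahsg, Serpina1c, Serpina1e, Serpina1a and Ambp, and all 13 were highest on HFD6. A cluster of 7 held Ucn, Tfap2b, Dmbx1, Foxa2 and Rln3, which codes for relaxin-3, with a median r of 0.87, also 0.87 without HFD1, and 0.82 over the CO arrays. The other 3 held 6 genes each and peaked on HFD2 (C2cd4c, Sp5, Myh6), HFD3 (Defa42, Lrg1, Neb) and HFD4 (Rtl1, Il22, Foxj2), with median r over the CO arrays of 0.27, 0.28 and 0.15. A second probe of Neb did not follow the first (r = -0.06) and had an SD of 0.16, so its peak rests on which probe is read.

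**Figure D5:**
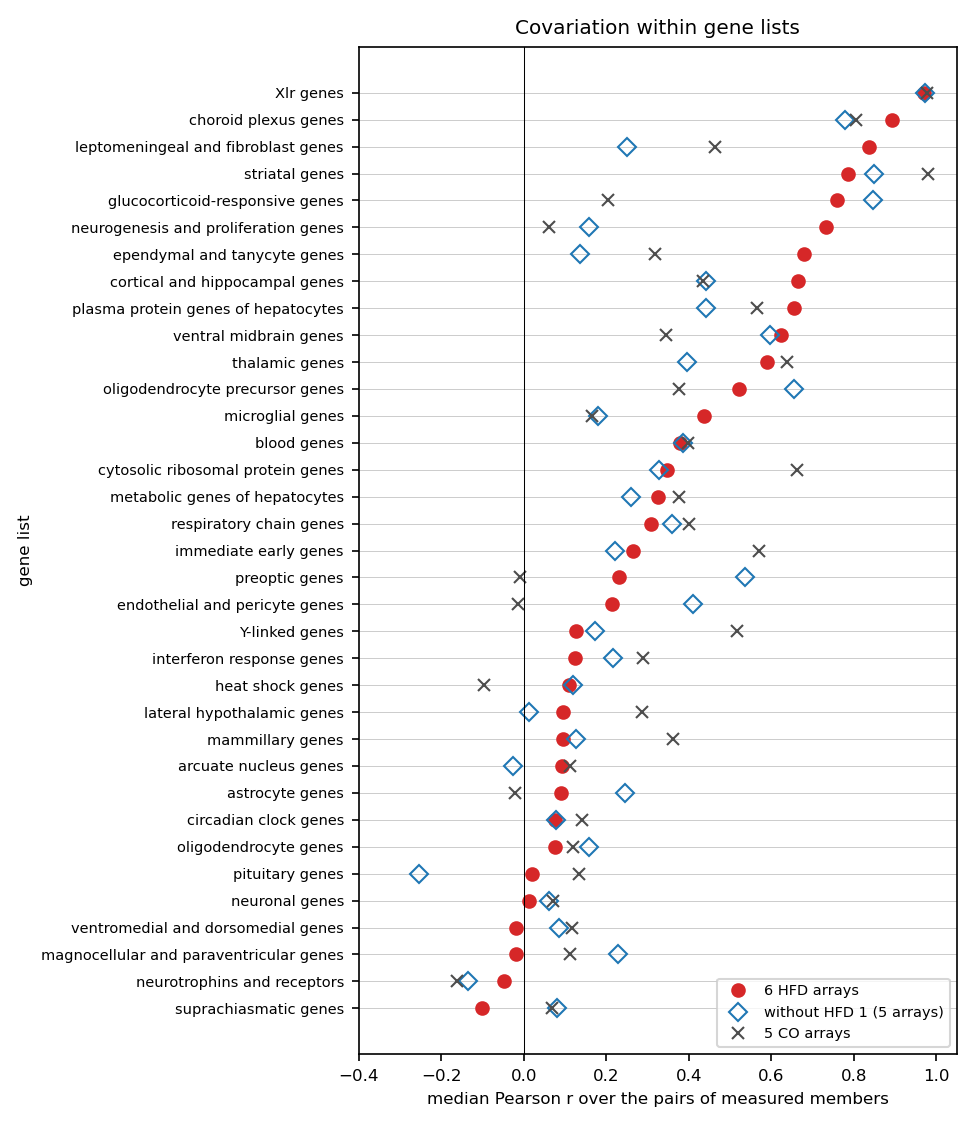
For each of 35 gene lists the x axis gives the median Pearson r over all pairs of measured members, over the 6 HFD arrays (red), without HFD1 (blue) and over the 5 CO arrays (crosses). Striatal, Xlr and choroid plexus genes stay above 0.7 in each of these, while leptomeningeal and neurogenesis genes fall below 0.3 without HFD1.

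Among 19 marker genes of cell types and states, correlations over the 6 arrays were tested for all 171 pairs. By an exact two-sided permutation test 28 pairs had an unadjusted p under 0.05 and 0 after Benjamini-Hochberg adjustment, where the smallest adjusted p was 0.158. By Spearman rho the counts were 15 and 0. The smallest p that the 720 orders of 6 arrays can give is 0.00139 for r and 0.00278 for rho. Ttr and Avp had r = 0.96 (n = 6, exact permutation p = 0.00139, adjusted p = 0.158) and rho = 1.00 (exact p = 0.00278, adjusted p = 0.356). Without HFD1 and HFD2, the farthest in Ttr, r was 0.72. Ttr and Nr5a1 had r = 0.99 (exact permutation p = 0.00278, adjusted p = 0.158) and rho = 0.94 (exact p = 0.0167, adjusted p = 0.356), and r = 0.74 without the same arrays. Adora2a and Dbp, a clock output factor, had r = 0.88 (exact permutation p = 0.0208, adjusted p = 0.214), rho = 0.94 (exact p = 0.0167, adjusted p = 0.356) and r = 0.90 without HFD1 and HFD3. These values are for the brightest probe of Dbp, and a second probe followed it only at r = 0.36. None of these relations passed the adjustment. Over 171 pairs a single pair at the smallest possible p could not pass it, so this does not show that relations are absent.

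The 6 arrays came from 2 slides, HFD1 and HFD2 on 1 and HFD3 to HFD6 on the other. With limma, 0 of 27424 probes differed between the slides at an adjusted p under 0.05, higher or lower (0.00%), and 2690 had an unadjusted p under 0.05 (9.81%). The smallest adjusted p was 0.174. Without HFD1 the test called 2 probes, and without HFD2, which leaves HFD1 alone on its slide and assumes that it varies like the others, 888, of which 833 were higher on the second slide. With slide means removed, 244 genes had an SD of at least 0.5. The slide therefore cannot be told apart from HFD1 and HFD2 themselves.

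Genes that varied most among HFD offspring mostly had a large SD among CO offspring too. Of the 100 genes with the largest SD in HFD, 88 were measured on all 5 CO arrays, and 71 of these (80.7%) were among the 10% of genes with the largest SD there. Without HFD1 the share was 56.8%. In HFD the SD fell with the level, and a share for genes of like level was not computed. The median SD of 15375 genes measured in both groups was 0.1253 in HFD and 0.152 in CO. Adora2a had an SD of 1.44 in CO and Ahsg 2.03, both among the widest there. Avp (0.18), Oxt (0.17), Agrp (0.13) and Igfbpl1 (0.19) lay between the 37.9th and 63.9th percentile of SD in CO, against 0.76, 0.65, 0.71 and 1.19 in HFD. Each of these genes was lowest on HFD1, and without HFD1 their SDs in HFD were 0.36, 0.13, 0.34 and 0.31. For genes with 2 named probes the probes followed each other more closely the larger the SD was: the median r was 0.27 in the class with the smallest SDs and 0.87 at an SD of at least 0.5, over 52 genes.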

How the data were processed

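Hypothalamic RNA of 6 HFD and 5 CO samples was measured on Agilent 1-colour arrays, and groups were taken from the sample titles. The deposited values are spot intensity values on a linear scale, which the authors made with Feature Extraction, with the background subtracted (version 10.8 per the submitters' processing notes, 10.7.3.1 per the file headers). How the authors scaled arrays to each other is not given in the sources read. From these, log2 of the processed signal minus the 75th percentile of each array was computed, without control and outlier spots, and spots of a probe were averaged. Of 39429 mouse probes, 26369 were named by accession through RefSeq (GRCm38.p6), for 19987 genes, and 13060 stayed unnamed. Only probes that the software marked as well above background on each of the 6 HFD arrays were kept, and a gene was taken by its brightest probe. No spot was saturated, and the number of arrays limits the precision.

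The SD over arrays, Pearson r and clusters of the 200 genes with the largest SD (average linkage, height 0.3) are descriptions without a test. Slides were compared with limma 3.58.1 in R 4.3.3, two-sided, with Benjamini-Hochberg adjustment at 0.05. Pairs of 19 marker genes were tested by exact permutation in Python 3.11.15 (numpy 2.4.6, pandas 2.3.3, scipy 1.17.1), and figures were drawn with matplotlib 3.10.9. Genes named were the 30 with the largest SD, up to 6 in each cluster, up to 4 in each list, the marker genes and the 10 with the smallest SD. Bhmt was named as the next below the 30. Members and lists were chosen with earlier results of these data known, and 4 of the 35 lists after values had been seen. Scripts were tested on simulated data. Alternatives were another background correction (limma normexp, offset 50, on the median signal), scaling, filters, spread measures, slide means removed and each array left out. No mean of HFD was compared with CO. Some genes that the rule names are not reported here.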

Additional observations from a re-analysis of the deposited data

Results flagged for a closer look

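A value was singled out where 1 of the 6 arrays lay so far from the rest that its gap to the nearest array, divided by the whole range, passed 0.625. Chance gives about 1 in 20, and over all genes 9.24% passed, while the genes below had been named largely for a large SD. Of 74 genes among those named, 35 passed, 20 of them with HFD1 as the array apart.

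HFD1 was lowest in telencephalic and progenitor genes, with ratios of 0.72 for Neurod6, 0.735 for Neurod2, 0.798 for Emx1, 0.912 for Eomes, 0.756 for Igfbpl1 and 0.88 for Ccnd2. It was lowest in the hypothalamic genes Oxt (0.799), Nr5a1 (0.82) and Vip (0.647). It was lowest in choroid plexus and meningeal genes, at 0.786 for Ttr, 0.729 for Clic6, 0.625 for Kl, 0.862 for Lum and 0.679 for Slc13a4. The same held for Lct (0.757), Mas1 (0.817), Cldn22 (0.749), Bhmt (0.694), Egr4 (0.689) and Ermn (0.665). HFD2 was lowest in S100a8 (0.63) and S100a9 (0.704) and highest in C2cd4c (0.745), Myh6 (0.895) and Sp5 (0.64). HFD3 was highest in Cdkn1a (0.634) and, by its brightest probe but not its second, Neb (0.772). HFD4 was highest in Foxj2 (0.861) and Il22 (0.788). HFD6 was highest in Ahsg (0.72), Alb (0.691), Ambp (0.694), Serpina1a (0.737), Serpina1c (0.733) and Serpina1e (0.758).

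Of 49 summary measures 16 passed. HFD1 stood apart in the score of the first principal component (0.829) and in the mean deviation of cortical and hippocampal (0.685), pituitary (0.641), ependymal and tanycyte (0.675), suprachiasmatic (0.675), leptomeningeal (0.739) and neurogenesis genes (0.74). HFD3 did so for glucocorticoid-responsive (0.636) and interferon response genes (0.649), HFD2 for respiratory chain genes (0.65) and HFD6 for plasma protein genes (0.767). Among clusters, the ratio was 0.841 for the one of 109 genes (HFD1), 0.774 for the one of 13 genes (HFD6), and 0.809, 0.679 and 0.763 for those that peaked on HFD2, HFD3 and HFD4. The clusters were built from r over these same arrays, and the plasma protein list was chosen after values had been seen. Their ratios follow in part from this, so the share given by chance does not apply to them.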

How the results depend on the processing

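Most results here are sizes with no direction. The median difference between slides, 0.02 on the log2 scale with 0 probes called, was -0.01 with quantile normalization and -0.02 with scaling to the median. Without HFD1 the slide test called 2 probes, both lower on the second slide, and without HFD2 833 higher and 55 lower. The median SD of 0.126 became 0.174 with the normexp background, 0.153 with no filter on dim probes and 0.103 as a scaled median absolute deviation. The 309 genes with an SD of at least 0.5 became 2578 with normexp, 591 with probes well above background on at least 3 arrays, 2014 with no filter and 128 by the median absolute deviation. The share of the first component, 44.4%, became 86.0% with normexp and 29.3% with no filter. The median r of choroid plexus genes, 0.89, became 0.75 with normexp and 0.77 as Spearman rho. The median r of second probes, 0.87, became 0.98 with normexp and 0.27 with no filter. The share of the top 100 genes also wide in CO, 80.7%, became 59.0% with no filter. The cause of these shifts was not tested. Among lists chosen after values had been seen, the median r of Xlr genes, 0.97, fell to 0.37 and 0.33 under looser filters, which add members near background. That of plasma protein genes, 0.66, became 0.26 as Spearman rho.

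Leaving out each array in turn gave 122 to 374 genes with an SD of at least 0.5, lowest without HFD1, and a median SD of 0.109 to 0.130. It gave a first component of 34.7% to 53.7%. The median r ran from 0.70 to 0.85 for striatal, 0.44 to 0.82 for cortical, 0.78 to 0.93 for choroid plexus and 0.33 to 0.85 for glucocorticoid-responsive genes, the last lowest without HFD3. It ran from 0.85 to 0.95 for second probes, and the share also wide in CO from 56.8% to 84.1%. Probes called between slides ran from 0 to 888, highest without HFD2. Marker pairs passing the adjustment were 0 in each case, which says nothing of stability, since 5 arrays allow too few orders to pass it. No paired analysis was possible because no test compared groups that share replicate numbers. The SD was largest in the dimmest genes, and the number of arrays limits all of these values.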
